A study of Homo sapiens with 6 samples.

Results

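The genes described are 7 receptors that steer B cells through lymphoid tissue, namely CXCR3, CXCR4, CXCR5, CCR6, CCR7, S1PR1 and GPR183. They were taken as all probe sets, the groups of short probes that read 1 transcript region on the array, whose platform annotation gives exactly 1 gene symbol equal to a receptor of this list. That rule found 11 probe sets for the 7 genes, of 54613 probe sets tested and 19775 genes with a probe set of 1 symbol. The tested cells were BL-2, an established line from a Burkitt lymphoma, a B cell cancer of germinal centre type, after a 6 h exposure to lipopolysaccharide (LPS), the lipid and sugar molecule that coats Gram-negative bacteria. The comparison was with the same line left without treatment. Each group held 3 samples with 1 Affymetrix array each, and the labels name no dose of LPS and do not say whether the samples came from separate cultures. Both groups are 1 cell line, without the other cells that provide ligands of these receptors in tissue.

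All 7 are receptors that couple to G proteins. Chemokine receptors read gradients of small secreted proteins laid down by stromal cells, and the resulting signal, carried mainly by the Gi class of G proteins, turns on actin movement and integrin adhesion. CXCR5 leads B cells into follicles, CXCR4 holds germinal centre B cells in the dark zone, and CCR7 draws activated B cells toward the T cell zone. S1PR1 and GPR183 read signals other than chemokines. S1PR1 reads the lipid sphingosine 1-phosphate and allows exit into blood and lymph. GPR183, also called EBI2, reads oxysterols and moves cells to the outer follicle. In germinal centre B cells CXCR4 and CXCR5 are typically high, and GPR183 and S1PR1 are kept low.

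None of the receptors differed detectably between LPS and control cells. By limma's moderated test across all probe sets, 0 of 11 receptor probe sets passed after Benjamini-Hochberg adjustment, where 0.264% of all tested probe sets passed. At an unadjusted p under 0.05 the count was also 0 of 11, against 8.08% of all probe sets, and the LPS and control values were fully apart in 0 of 11, against 13.4% of all probe sets. Of the 11 differences 5 lay above 0 and 6 below, with a median of -0.05 on the log2 scale, where the median over all tested probe sets was 0.0029. Taken 1 probe set at a time, the 95% intervals ran at the lowest to a 0.715-fold level in LPS cells, for CCR7. At the highest they ran to a 1.23-fold level, for S1PR1. They concern array signal, and CCR6 and GPR183 lay toward the lower end of the scale, where changes may be compressed. Counts of 0 among 11 do not set the receptors apart from these background shares.

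Array medians were 6.42 to 6.47 on the log2 scale, the lowest value on any array was 5.46, and arrays correlated with each other at 0.992 to 0.997 over the tested probe sets. B cell markers were clearly present. The 6 measured, among them MS4A1 (CD20) and CD79A, averaged 10.91 to 10.98 per LPS array and 10.92 to 11.1 per control array, and all 6 lay above the median level. The 7 monocyte and macrophage markers averaged 6.16 to 6.2 on LPS arrays and 6.17 to 6.19 on control arrays, and the 9 T and NK cell markers 6.26 to 6.28 and 6.22 to 6.32, near or below the array medians. The 4 germinal centre markers measured averaged 9.43 to 9.59 per LPS array and 9.86 to 9.95 per control array, with a median difference of -0.33. Of these 1 passed the test, MYBL1 at -0.56 (limma adjusted p = 0.0288), where 0.389% of all genes did. All 4 were lower in LPS cells at an unadjusted p under 0.05, against 9.56% of all genes in either direction, with the groups fully apart, and 3 passed with array set as a block, where 2.02% of all genes did. The part of this shift in the receptor values was not tested. In bulk RNA, fewer cells of a type and less RNA per cell cannot be told apart. The arrays were split into 2 sets by the mean level of the hybridisation controls added to every array. The cut was at the widest gap, 0.22 against 0.081 for the next, a rule that gives 2 sets in any data. Set A held 2 LPS arrays and 1 control array, and set B held 1 LPS array and 2 control arrays. The labels do not name these sets, so values within each are given where they differ.

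CXCR4, the receptor for CXCL12, was read by 3 probe sets, each far above the array medians. RefSeq (GRCh38.p14) places its outermost start site on chromosome 2, and the 250 bases before it are shown because of that strong signal. The window is chr2:136118150-136118399 on the minus strand, printed in the direction of transcription. Capitals mark the core of the NRF1 motif, searched as GCATGCG, and the TATA motif, searched as TATAAAA, each on both strands. Both motifs were chosen after this sequence had been read, so their presence in it is a description only.
CXCR4: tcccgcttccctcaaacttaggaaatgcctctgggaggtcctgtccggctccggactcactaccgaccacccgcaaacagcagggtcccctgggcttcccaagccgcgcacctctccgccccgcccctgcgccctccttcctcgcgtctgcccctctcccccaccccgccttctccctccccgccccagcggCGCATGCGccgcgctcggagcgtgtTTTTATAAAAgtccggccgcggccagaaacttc

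The NRF1 core, named for a transcription factor of many housekeeping genes, began 57 bases before the CXCR4 start site, overlapped by its match on the opposite strand at 58 bases. It occurred in 3.91% of the 35116 RefSeq promoter windows of 300 bases. The TATA motif began 30 bases before the start site, overlapped by its match on the opposite strand at 33 bases, and occurred in 4.52% of windows. RefSeq windows were at hand for 6 of the 7 receptors, 10 windows in all. CCR7 was not among them. The NRF1 core was found in 1 of the 10 and the TATA motif in 2, the other being that of GPR183, 175 bases before its start. The NF-kB motif, named for the factor that LPS activates in responsive cells, had a match in 1 of the 10 windows, in S1PR1, and in 11.3% of all windows. A match describes letters and does not show binding. NRF1 itself, looked at because of the motif and after its values were known, differed by 0.03 between LPS and control cells (95% interval -0.14 to 0.21, brightest probe set).

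The brightest CXCR4 probe set read 11.94, 11.93 and 12.0 on the LPS arrays, against 12.01, 12.01 and 11.83 on the control arrays (replicates 1 to 3). The values overlap, with control 3 the lowest of the 6. Its difference was 0.01 on the log2 scale (SE 0.0934, adjusted p = 0.993, limma), with a 95% interval from -0.19 to 0.21. In linear terms that interval spans a 0.875-fold to a 1.16-fold level in LPS cells. The middle probe set read 11.37, 11.41 and 11.43 in LPS cells and 11.61, 11.58 and 11.27 in control cells, a difference of -0.08 (SE 0.105, adjusted p = 0.905). The LPS values here lay close together, between the lowest control and the other two. The dimmest read 11.08, 11.09 and 11.13 in LPS cells and 11.32, 11.23 and 11.05 in control cells, a difference of -0.1 (SE 0.0967, adjusted p = 0.874). The middle and dimmest probe sets carry suffixes (_s_at and _x_at) that mark probes able to bind more than 1 transcript. Within the array sets the 3 probe sets gave -0.07, -0.22 and -0.23 in set A and 0.08, 0.01 and -0.01 in set B, in the order above. The set A values rest on a single control array, control 1, which had the highest value on both of these. Without control 3, the lowest control array, the differences were -0.05, -0.19 and -0.17. None of these passed.

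CXCR5, the receptor for CXCL13 and the marker of follicular B cells, had 2 probe sets above the array medians. By the brighter of them the values were 7.82, 7.86 and 7.78 on LPS arrays, against 7.84, 7.88 and 7.91 on control arrays. The groups overlapped by a narrow margin, with LPS 2 above control 1. The difference of -0.06 (SE 0.0697, adjusted p = 0.905) had a 95% interval from -0.21 to 0.09, at the lowest a 0.867-fold level. By the dimmer the values were 7.37, 7.32 and 7.19 in LPS cells and 7.33, 7.31 and 7.39 in control cells, a difference of -0.05 (SE 0.0695, adjusted p = 0.922). LPS 3 was the lowest array here, and without it the difference was 0.0034. Among the set A arrays the brighter and the dimmer probe set gave -0.0023 and 0.02, and among those of set B -0.11 and -0.16.

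CCR7, which binds CCL19 and CCL21, had the largest standard error of the 11 receptor probe sets. It read 7.38, 7.72 and 7.24 in LPS cells, against 7.54, 7.99 and 7.31 in control cells. Control 2 was the highest array and LPS 3 the lowest, with the groups interleaved. The means were 7.45 ± 0.244 in LPS and 7.61 ± 0.347 in control cells (SD, n = 3 each), and the difference of -0.17 (SE 0.147, adjusted p = 0.841) had the widest interval of the 11, from -0.48 to 0.15. Without control 2 the difference was 0.02 (adjusted p = 0.994), without LPS 2 it was -0.3, and without control 3 it was -0.32. LPS 2 was the highest LPS array, and each LPS value lay below the control value of the same replicate number. The brighter CXCR5 probe set had that order too, and whether replicate numbers pair the samples could not be told. With a replicate block the difference was -0.17 (limma adjusted p = 0.374). Set A gave 0.01 for CCR7, and set B, with controls 2 and 3 and a single LPS array, gave -0.41. An observed 1.7-fold difference would have been needed for CCR7 to pass at this spread. That is the size the test asks of the measured values, and it does not bound the true change.

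S1PR1 lay just above the median level of the tested probe sets. It read 6.68, 6.74 and 6.59 in LPS cells, against 6.72, 6.35 and 6.59 in control cells. Control 2 was the lowest array, and the other control values lay within or at the edge of the LPS range. Its difference of 0.12 (SE 0.0835, adjusted p = 0.788, 95% interval -0.06 to 0.3) had the smallest unadjusted p of the 11, 0.178. Without control 2 it was 0.02 (adjusted p = 0.993). Regardless of group, the level of S1PR1 in set B minus that in set A was -0.2. A fit with array set as a block gave an LPS difference of 0.06 for S1PR1, and the difference was -0.01 among the set A arrays and 0.12 among those of set B.

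GPR183 read 5.83, 5.95 and 5.93 in LPS cells and 5.85, 6.24 and 5.86 in control cells. Every array but control 2 lay between 5.83 and 5.95, toward the lower end of the scale, where changes may be compressed. The difference was -0.08 (SE 0.0835, adjusted p = 0.878, 95% interval -0.26 to 0.1), and it was 0.05 without control 2. Set A alone gave 0.04 and set B, which holds control 2, gave -0.12. Control 2 was thus the highest array for CCR7 and GPR183 and the lowest for S1PR1.

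CXCR3, whose ligands CXCL9, CXCL10 and CXCL11 are induced by interferon, sat near the array medians on both its probe sets. By the brighter it read 6.44, 6.57 and 6.62 in LPS cells and 6.52, 6.6 and 6.49 in control cells, a difference of 0.002 (SE 0.0633, adjusted p = 0.998). By the dimmer it read 6.35, 6.44 and 6.35 in LPS cells and 6.41, 6.28 and 6.35 in control cells, a difference of 0.04 (SE 0.0567, adjusted p = 0.931). Values of both groups were fully intermixed on each. CCR6, the receptor for CCL20, read 5.93, 5.96 and 6.05 in LPS cells and 5.95, 5.96 and 5.86 in control cells. LPS 3 was the highest and control 3 the lowest of these, with the other arrays close together. Its difference of 0.06 (SE 0.0515, adjusted p = 0.852, 95% interval -0.05 to 0.17) was measured below the array medians, so the narrow interval may understate the uncertainty in transcript abundance. CCR6 was at -0.0014 among the set A arrays and at 0.14 among those of set B. Levels of different probe sets are not set against each other here, because probes differ in how strongly they bind.

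**Figure D1:**
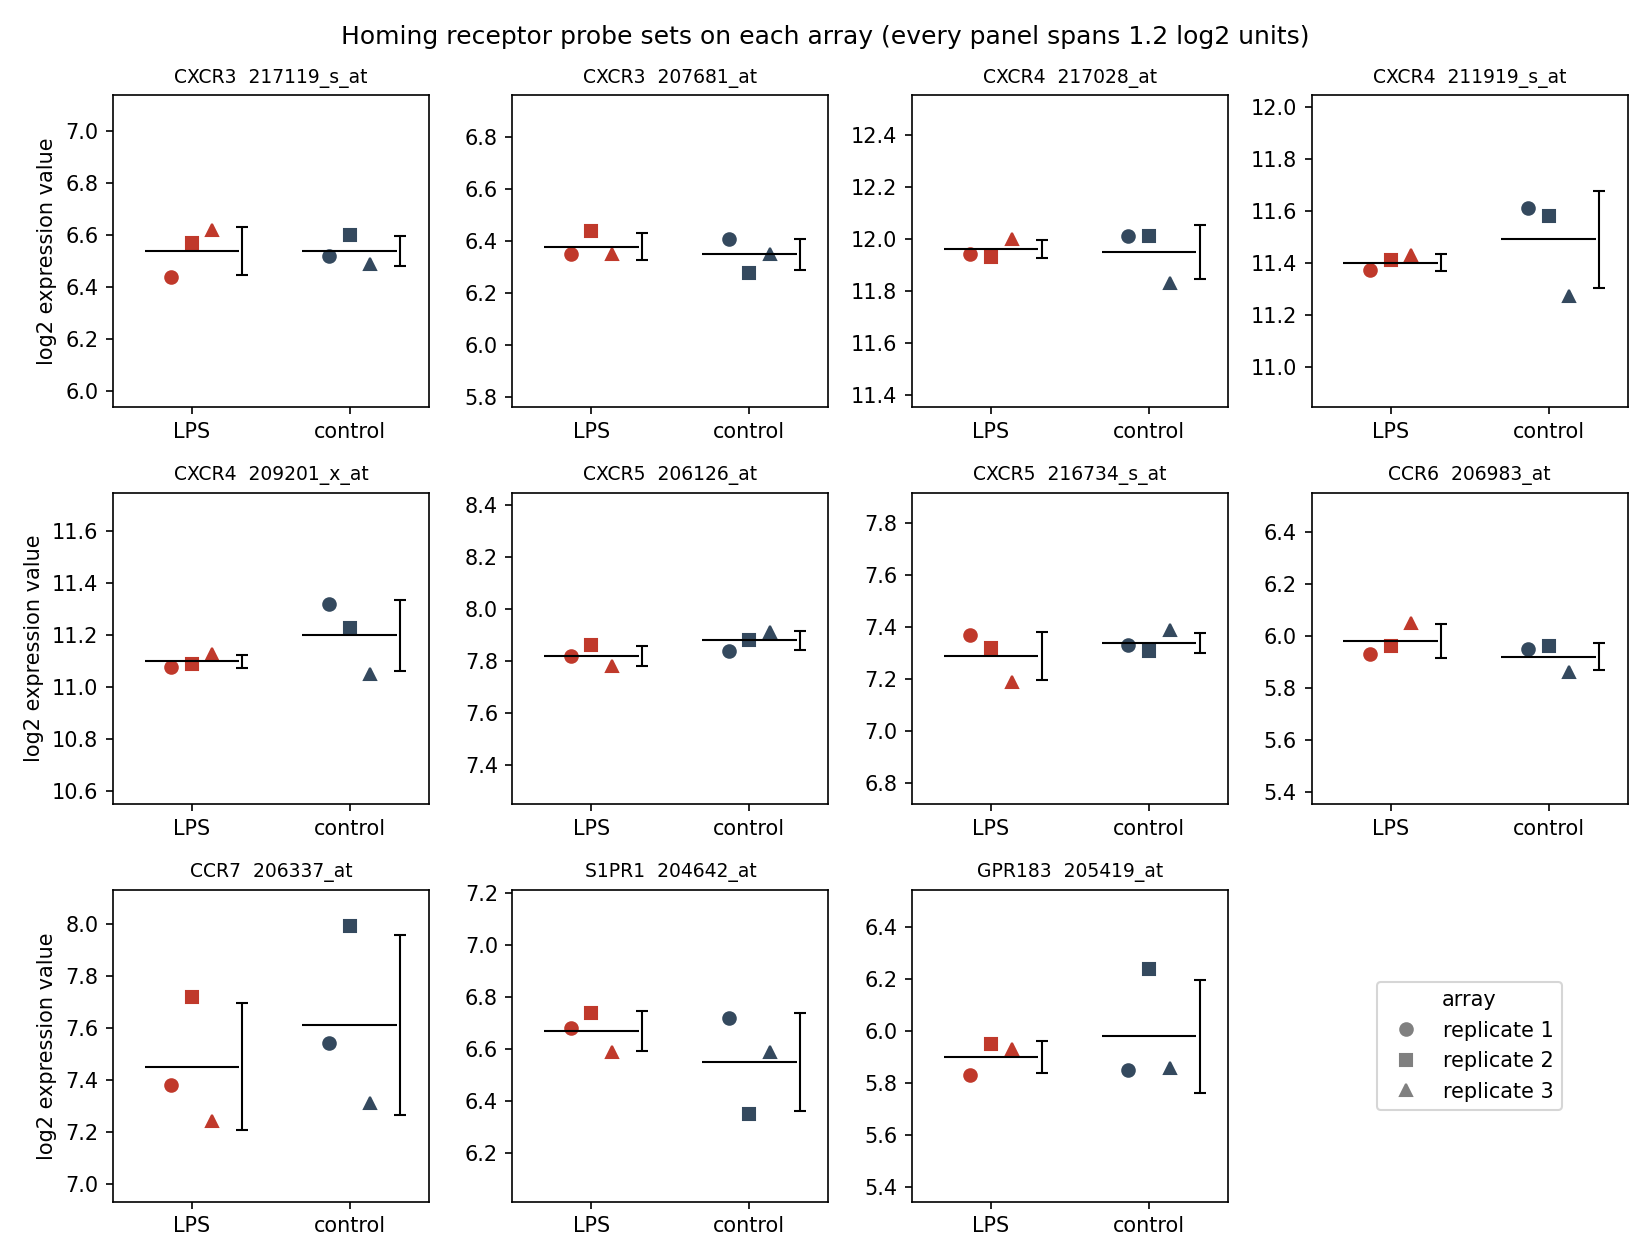
Log2 expression value of each of the 11 receptor probe sets on the 3 LPS arrays (red) and the 3 control arrays (dark blue), with the symbol giving the replicate number, the horizontal line the group mean and the bar ± 1 SD. The groups overlap in every panel, and control 2 (dark blue square) lies apart from the other 5 arrays for CCR7, GPR183 and S1PR1.

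The precision differed between receptors. At the largest p that still passed, 0.000131, a log2 difference of 0.27 would have sufficed for CCR6, 0.3 and 0.33 for the CXCR3 probe sets, and 0.36 for both of CXCR5. S1PR1 and GPR183 would each have needed 0.44, and the CXCR4 probe sets 0.49 to 0.55. CCR7 would have needed 0.77. All observed differences were well short of these sizes, the largest being that of CCR7 at -0.17.

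**Figure D2:**
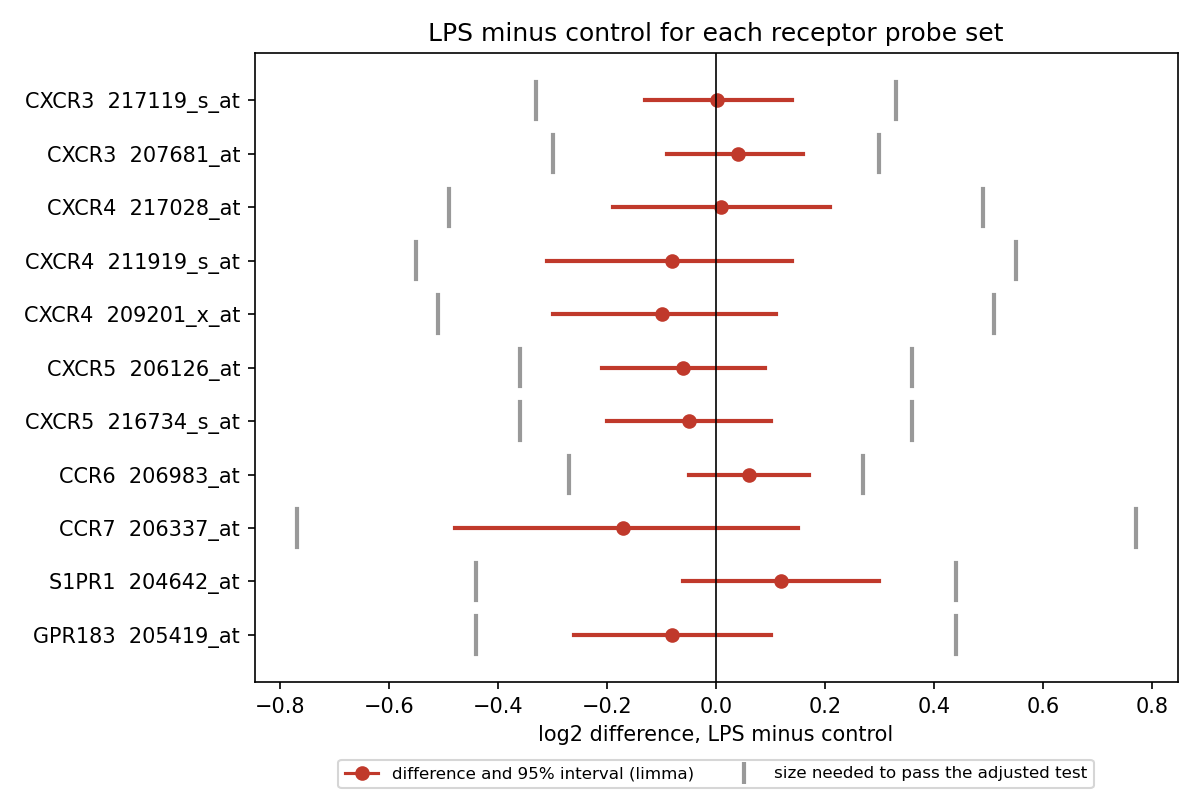
Log2 difference, LPS minus control, of each receptor probe set (points) with its 95% interval from the limma fit (red lines), and the size that would have passed the adjusted test at the same standard error (grey marks, from 0.27 for CCR6 to 0.77 for CCR7). All 11 intervals include 0 and stay inside the grey marks.

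Leaving out each array in turn gave differences between -0.32 and 0.2 over the 11 probe sets, with 0 passing each time. Over the set A arrays alone the differences spanned -0.23 to 0.04, and over those of set B -0.41 to 0.14. In the fit with array set as a block 0 of 11 passed, where 1.34% of all probe sets did, and the lowest adjusted p among the receptors was 0.66, that of CCR7.

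**Figure D3:**
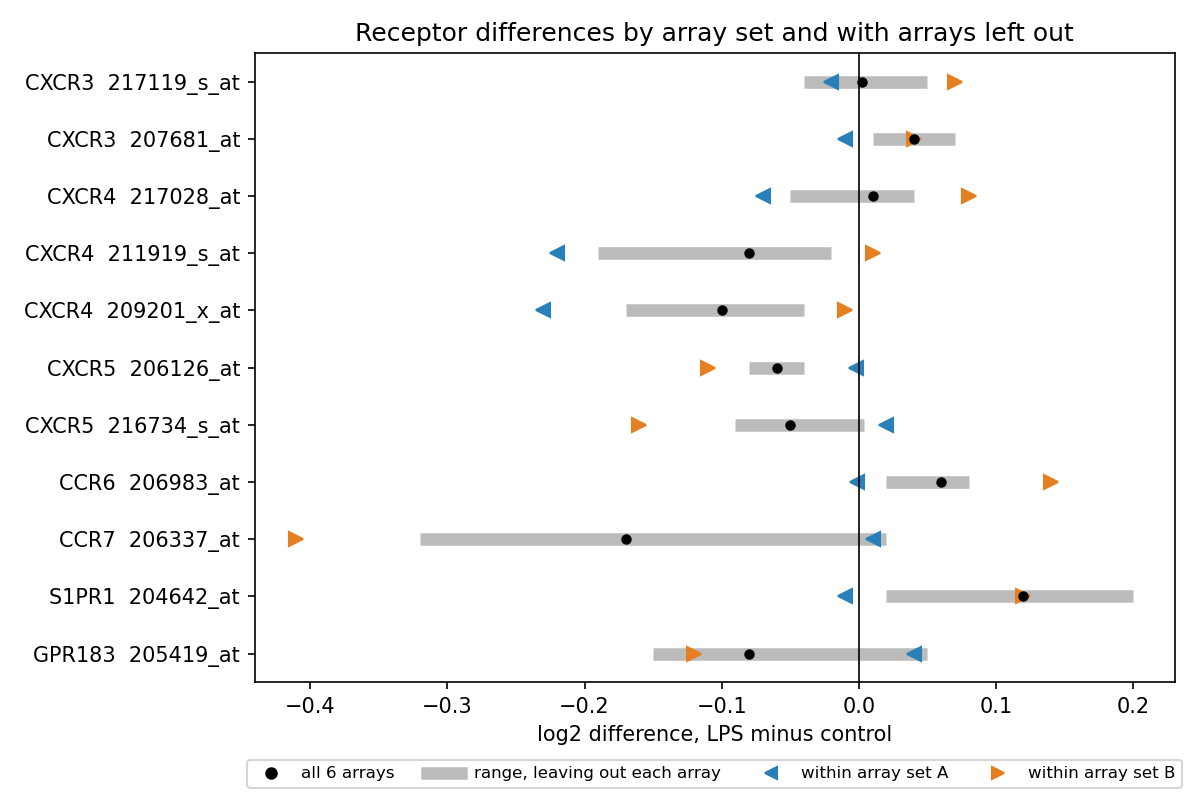
Log2 difference, LPS minus control, of each receptor probe set over all 6 arrays (black), within array set A (blue) and within array set B (orange), with the range obtained by leaving out each array in turn (grey bar). The widest bar is that of CCR7, from -0.32 to 0.02, and the sets differ most for CCR7, at 0.01 and -0.41.

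The genes whose profile over the 6 arrays was nearest to that of S1PR1, the receptor with the smallest p, were ZBED4, DNM2 and GIT1. Their root mean square differences from it were 0.0228, 0.0233 and 0.0238 on the log2 scale, after each profile was centred on its own mean, among 12653 genes above the median level. DNM2 encodes dynamin 2, a GTPase of membrane scission, and GIT1 a scaffold protein of focal adhesions. All 3 genes had low values on control 2, as S1PR1 had, and LPS differences of 0.12, 0.14 and 0.13 that did not pass. This likeness follows from how they were picked, by nearness to S1PR1 on the same 6 arrays, and is a description only.

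The wider migration pathway was described with 115 listed genes beside the receptors, of which 108 were measured. By each gene's brightest probe set 1 of the 108 passed the limma test, 0.926%, where 0.389% of all genes did, and 22 had an unadjusted p under 0.05, 20.4% against 9.56% of all genes. The median difference was -0.01, and 0.0016 over all genes. With array set as a block 7 of the 108 passed, where 2.02% of all genes did. These shares are not like for like with those of all genes. Of the 108, 81 lay above the median level of the tested probe sets, and the lists were chosen with earlier results of these data known. No pathway effect is read from them.

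Of the 16 measured genes for ligands and for enzymes and transporters of lipid ligands, 0 passed by limma, where 0.389% of all genes did. At an unadjusted p under 0.05 there was 1 of the 16, where 9.56% of all genes were. The median difference of the 16 was 0.01. CXCL9, a ligand of CXCR3, had the smallest p, at 6.29, 6.38 and 6.19 in LPS cells and 6.25, 6.12 and 6.0 in control cells, a difference of 0.16 (SE 0.0689, adjusted p = 0.58). Its values overlapped and lay below the array medians. Of 24 other migration receptors 0 passed, where 0.389% of all genes did, and the median was 0.0016. At an unadjusted p under 0.05 there were 3 of the 24, where 9.56% of all genes were. CCR10, which binds CCL27 and CCL28 of skin and mucosa, read 6.46, 6.55 and 6.5 in LPS cells and 6.23, 6.19 and 6.37 in control cells. All LPS values were above all control values, by 0.24 on average (SE 0.0603, adjusted p = 0.159). In the array set block fit its difference of 0.25 passed narrowly (adjusted p = 0.049), at a signal near the array medians.

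Among 42 measured genes of receptor signalling and desensitisation, 1 fell and 0 rose, where 0.207% of all genes fell and 0.182% rose, and the median was -0.03. At an unadjusted p under 0.05 there were 12 of the 42, 4 higher and 8 lower in LPS cells, where 9.56% of all genes were in either direction. All 42 lay above the median level, so the share over all genes, dim ones included, is not a like comparison. The gene that fell was RGS18, a regulator that speeds the shut-off of Gi and Gq proteins. It read 7.52, 7.56 and 7.53 in LPS cells, against 8.22, 8.57 and 8.38 in control cells. The groups were well apart, with a difference of -0.85 (SE 0.0877, adjusted p = 0.0014). It passed with each array left out, at -0.94 to -0.76, and gave -0.68 within set A and -0.95 within set B. ELMO1, the partner of the Rac activator DOCK2 in lymphocyte migration, had 8.59, 8.37 and 8.45 in LPS cells and 9.04, 8.67 and 8.85 in control cells. The groups did not overlap, yet the difference of -0.39 did not pass (adjusted p = 0.19). ELMO1 passed in the fit with the array set block (-0.44, adjusted p = 0.00716). It also passed with a replicate block (-0.39, limma adjusted p = 0.0231) and with quantile normalisation (-0.42, limma adjusted p = 0.0389).

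Adhesion molecules and surface partners of the receptors gave 0 passing of 8 measured, where 0.389% of all genes passed. The median was -0.07, with 7 of the 8 below 0. At an unadjusted p under 0.05 there was 1 of the 8, where 9.56% of all genes were. ITGAL, the alpha chain of the integrin LFA-1, had the smallest p, with 6.8, 6.87 and 6.75 in LPS cells and 6.94, 7.08 and 6.94 in control cells. That difference of -0.18 (SE 0.0653, adjusted p = 0.454) did not pass, though all LPS values were below all control values. The groups were fully apart, in either direction, in 13.4% of all probe sets.

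Of 18 transcription factors tied to the receptor genes 0 passed, where 0.389% of all genes did, and 12 lay above 0. At an unadjusted p under 0.05 there were 5 of the 18, 1 above and 4 below 0, where 9.56% of all genes were. POU2AF1, the B cell coactivator of octamer factors known to take part in CXCR5 expression, had the smallest p. It read 11.88, 11.71 and 11.82 in LPS cells, against 12.0, 12.21 and 12.21 in control cells. LPS values were all lower, with a difference of -0.34 (SE 0.0981, adjusted p = 0.269), and a dim second probe set gave 0.01. BCL6, the germinal centre repressor known to act on GPR183, read 11.05, 10.86 and 10.98 in LPS cells and 11.23, 11.21 and 11.38 in control cells, a difference of -0.31 (adjusted p = 0.321). In the array set block fit POU2AF1, BCL6, EBF1 and BACH2 passed, at -0.3, -0.3, -0.41 and -0.39 (adjusted p = 0.0207, 0.0467, 0.0229 and 0.0131). With quantile normalisation POU2AF1 and BCL6 passed as well, at -0.35 and -0.36 (limma adjusted p = 0.0208 and 0.0298). RELB, an NF-kB subunit, was the 1 above 0. It read 9.21, 9.1 and 8.72 in LPS cells, against 8.88, 8.38 and 8.47 in control cells, with LPS 3 below control 1. Its difference of 0.43 did not pass (SE 0.138, limma adjusted p = 0.344), nor did it in the array set block fit (0.28, adjusted p = 0.0683). It passed with a replicate block (0.43, adjusted p = 0.0375) and without control 1 (0.58, adjusted p = 0.0358). ELMO1, BCL6, EBF1, BACH2 and RELB were named for passing under such alternatives, after their values were seen. CXCR5 and GPR183, in the array set block fit, gave -0.06 by the brighter CXCR5 probe set and -0.04 (adjusted p = 0.885 and 0.93).

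**Figure D4:**
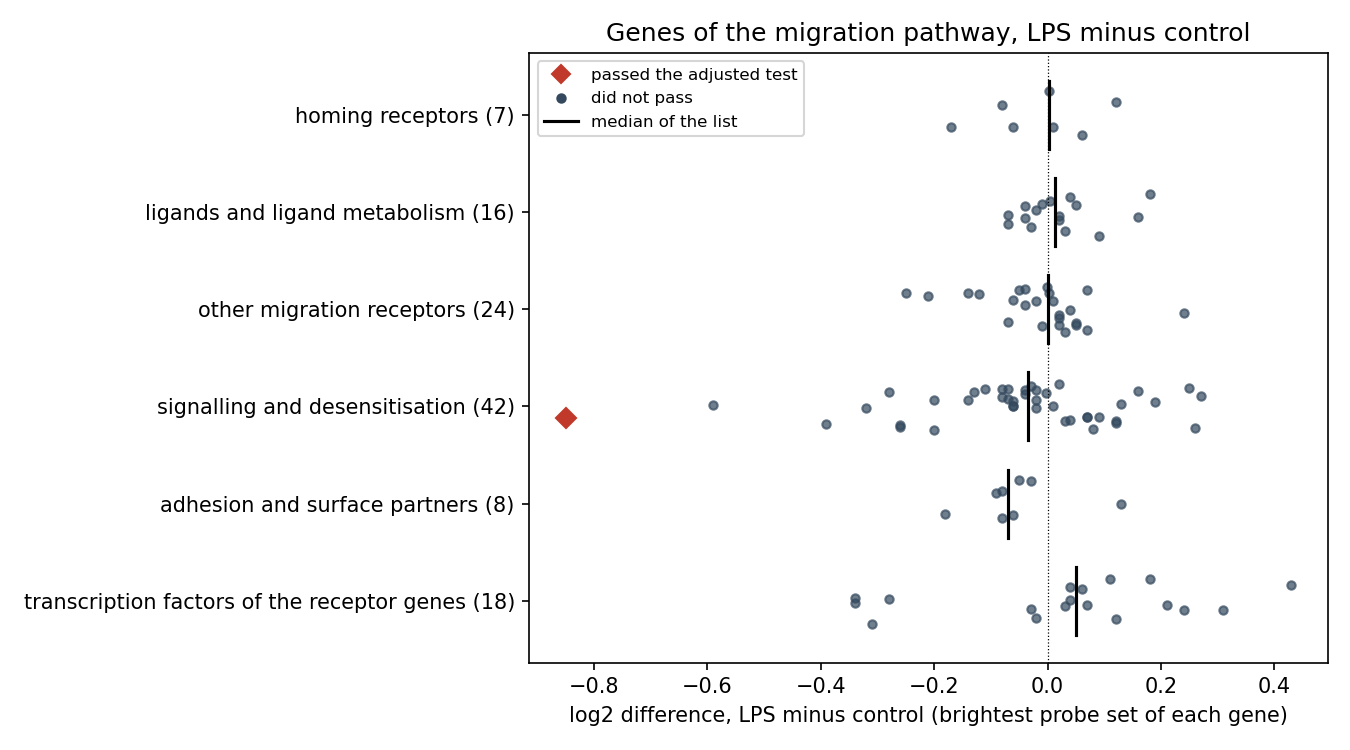
Log2 difference, LPS minus control, of the 7 receptors and of the 108 other measured genes of the migration pathway by list (number measured in brackets), each by its brightest probe set, with the list median as a black line. RGS18 at -0.85 is the gene that passed the adjusted test (red diamond), and the receptors lie between -0.17 and 0.12.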

How the data were processed

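RNA of 3 LPS and 3 control samples of BL-2 was measured on 1 Affymetrix array each. The deposited table holds 1 value per probe set and array, taken as log2 because values ran from 5.46 to 14.81. The base is inferred, and the authors' background correction, summary and normalisation are not given in the sources used here. Groups and replicate numbers follow the sample titles. As separate cultures are not stated, p-values reflect only the spread between samples, possibly technical, and the number of arrays limits precision.

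After leaving out 62 control probe sets, 54613 were fitted with limma 3.58.1 in R 4.3.3: group as the only term, a two-sided empirical Bayes test with intensity trend, Benjamini-Hochberg over all, threshold 0.05. Gene names came from the platform annotation, checked through gene identifiers against RefSeq (GRCh38.p14): 41037 of 41091 probe sets with 1 symbol matched. Outside the receptors a gene stood for its brightest probe set. The steps were tested on simulated arrays. The receptors, the lists and the array sets, parted at the widest gap (0.22) in the mean of 18 hybridisation control probe sets, were chosen with earlier results of these data known. Named were all receptor probe sets and, per list, each passing gene or else the gene with the smallest p. Promoter windows were searched with pattern matching. Alternatives were a replicate block, an array set block, quantile normalisation, median centring, a filter on dim probe sets, no intensity trend, array weights, other summaries per gene and leaving out each array.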

Additional observations from a re-analysis of the deposited data

How the results depend on the processing

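Under all 13 alternatives that apply to single receptor probe sets, 0 receptor probe sets passed. Signs of differences close to 0 did change. The brighter CXCR3 probe set (0.002) was at -0.01 with array weights and from -0.04 to 0.05 with an array left out. The brightest CXCR4 probe set (0.01) was at -0.0039 with quantile normalisation and from -0.05 to 0.04 with an array left out. The dimmer CXCR5 probe set ran from -0.09 to 0.0034, CCR7 from -0.32 to 0.02 and GPR183 from -0.15 to 0.05, and the sign of CCR7 and GPR183 turned without control 2. The filter on dim probe sets left 8 of the 11 in the fit. The count of pathway genes that passed, 1 of 108, was 7 with array set as a block, 4 with quantile normalisation, 3 with a replicate block and 1 to 2 with an array left out, the 2 being without control 1. It was 1 under the other alternatives run. RGS18 was among those that passed in each of these settings that moved the count. The share of all genes that passed was 2.02% with array set as a block and is not given for the other alternatives. Whether replicate numbers pair the samples could not be told. Deviations of arrays with the same number correlated at 0.44, -0.04 and 0.23, and 3 of the 6 arrays correlated best with their own number. The replicate block moved the count over all probe sets to 498, against 144, and the array set block to 734. With an array left out that count was 10 to 374, the lowest without LPS 2 and the highest without control 1. Scaling moved the median of all probe sets by less than 0.1. Receptors near the lower end of the scale (CCR6, GPR183) may show compressed differences. The causes of these changes were not tested.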

Other observations

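The control 2 array, which was the highest for CCR7 and GPR183 and the lowest for S1PR1, stood apart in a further gene of the migration pathway. RGS1, a regulator of G protein signalling that dampens chemokine responses in B cells, read 7.78 on control 2 by its brightest probe set, and at most 6.37 on the other 5 arrays. By the next it read 6.76 on control 2 and at most 6.25 on the others, and the dimmest probe set read 5.77 on control 2, inside the range of the others. That brightest RGS1 probe set was the only 1 of 54613 that exceeded the other 5 arrays by at least 1 on the log2 scale on any array, in either direction. CCR7 read 7.99 on control 2 against at most 7.72 on the others, and GPR183 6.24 against at most 5.95. These are among 81 probe sets in which control 2 exceeded the others by at least 0.25, a count that was 27 to 119 for the other arrays. Control 2 lay below all others by that much in 273 probe sets, against 5 to 99 for the other arrays. The probe sets that led the list after RGS1 were those of HILPDA, DDIT4 and BNIP3, known as genes of the hypoxia and stress response, at 0.55 to 0.74 above the others. These values describe 1 array, were found after the data were seen, and their source was not tested. S1PR4, a further receptor for sphingosine 1-phosphate, read 6.93, 7.1 and 6.9 in LPS cells, against 7.17, 7.38 and 7.13 in control cells. All LPS values were lower, with a difference of -0.25 that did not pass (limma adjusted p = 0.354).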
